A study of Homo sapiens with 6 samples.

Results

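The 5 cadherins CDH1, CDH2, CDH3, CDH4 and CDH11 and the 5 catenins CTNNA1, CTNNA2, CTNNB1, CTNND1 and CTNND2 were followed in RNA-seq of SK-N-BE(2), a MYCN-amplified human neuroblastoma cell line. These 10 genes were taken by name from the 58302 genes with a value in every sample, and all 10 were found. Both groups were SK-N-BE(2) cells transfected with siRNA, with 3 samples carrying the negative control siRNA (NC) and 3 carrying the siRNA against Prp19 (siPrp19), a splicing factor encoded by PRPF19. The sample labels place the harvest 72 h after transfection, whereas the text of the study gives a shorter time. All samples came from 1 cell line, so the p-values describe the spread between transfected cultures of that line.

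Classical cadherins are single-pass adhesion receptors whose outer domains bind the same kind of molecule on the neighbouring cell. Their short cytoplasmic tails bind β-catenin, which recruits α-catenin and through it the actin cytoskeleton, while p120 catenin binds closer to the membrane and holds the cadherin at the cell surface. E-cadherin (CDH1) is typical of epithelia and N-cadherin (CDH2) of neural and mesenchymal cells, and β-catenin (CTNNB1) is also the transcriptional co-activator of canonical Wnt signalling. E-cadherin is the cadherin that the study measured as a protein, which is why its transcript is given first. By Western blot the paper reports more E-cadherin after Prp19 knockdown and less with overexpression. The values here are of RNA and do not measure that protein.

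The 5 cadherin genes are related, and a stretch of 60 coding bases near the end of the cytoplasmic tail, in the part that binds β-catenin, is shown to make their likeness visible. Each was read from GRCh38 with the GENCODE 29 gene models, runs 5′ to 3′ on the coding strand, lies within 1 exon, and carries capitals where its base differs from CDH2 at the same place.

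CDH2 (chr18:27952168-27952227, minus strand): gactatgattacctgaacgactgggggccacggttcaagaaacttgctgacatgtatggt
CDH1 (chr16:68833422-68833481, plus strand): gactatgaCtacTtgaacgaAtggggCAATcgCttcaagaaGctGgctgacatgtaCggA
CDH3 (chr16:68698323-68698382, plus strand): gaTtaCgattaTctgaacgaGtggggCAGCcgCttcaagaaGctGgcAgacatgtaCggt
CDH4 (chr20:61936866-61936925, plus strand): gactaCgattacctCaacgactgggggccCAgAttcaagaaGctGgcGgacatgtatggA
CDH11 (chr16:64947633-64947692, minus strand): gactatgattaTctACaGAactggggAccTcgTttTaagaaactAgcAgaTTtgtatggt

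Here CDH4 shared 51 of 60 bases with CDH2, CDH1 shared 48, and CDH3 and CDH11 shared 47 each. Even so, the longest run of identical bases between any pair of these transcripts was 21 bases, in CDH1 and CDH3, which are neighbours on chromosome 16. Among the member catenins the longest shared run was 23 bases, in CTNNA1 and CTNNA2. Runs of this length are short beside the sequenced fragments.

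The authors deposited FPKM, a depth-scaled count of fragments for each kilobase of exon. For most genes that length counts every annotated exon, for example 4950 bases for CDH2 and 13381 for CDH11, whichever of them the cells use. Levels of different genes can therefore be set side by side only roughly. The deposited values, multiplied by the gene's exon length, gave whole numbers of reads for 97.2% of the genes found in GENCODE 29, and by that count 19058782 to 21943936 reads lay on genes in the NC samples and 22273026 to 24181789 in the siPrp19 samples. Replicate 3 of both groups stood apart, and the leading principal component, which carried 49.9% of the variance, separated it from replicates 1 and 2. The targeted gene PRPF19 had a mean of 57.0 FPKM in NC and 27.9 FPKM with siPrp19, or 49.0% of NC, and its groups did not overlap. Markers of adrenergic neuroblastoma were abundant, with 9 of 9 passing 1 FPKM, whereas 1 of 13 epithelial markers did. Of 8 mesenchymal or Schwannian markers 6 passed it, with VIM at a mean of 199 FPKM over all samples. PRRX1 stayed below it, and the Schwann cell factor SOX10 was listed at 0 in every sample.

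SK-N-BE(2) cells carried almost no E-cadherin transcript. CDH1 (ENSG00000039068, chr16:68737225-68835548) had 0.0148 FPKM in NC replicate 1 and was listed at 0 in NC replicates 2 and 3. With siPrp19 it had 0.00713 FPKM in replicate 1 and 0.00779 FPKM in replicate 2, and was listed at 0 in replicate 3. In reads this was 2, 0 and 0 in the NC samples and 1, 1 and 0 in the siPrp19 samples, or 4 of 128967735 reads on genes, with an exact Poisson interval of 1.09 to 10.2 reads. A count of 0 allows up to 3 reads, which would be 0.0196 to 0.0276 FPKM depending on the sample, and every sample lay below that. These intervals cover counting error only. No change of CDH1 could be detected at this depth, and no fold change is given, since both groups lay under the limit.

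N-cadherin was the main cadherin among the members. CDH2 (ENSG00000170558, chr18:27950966-28177446, minus strand) had 27.9, 30.95 and 36.8 FPKM in NC replicates 1, 2 and 3, on 2698 to 3603 reads. With siPrp19 it had 26.3, 29.8 and 33.4 FPKM, on 2961 to 4105 reads. Within pairs of the same number siPrp19 was lower 3 of 3 times, but the ranges of the groups overlapped, and replicate 3 was the highest in both. Its mean level in NC lay at percentile 91.2 of the tested genes. Per unit of length, CDH2 exceeded CDH1 by a ratio of 6066 over all samples, with an exact 95% interval of 2369 to 22260 that reflects the 4 reads on CDH1.

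The other member cadherins were low. CDH11, a type II cadherin of mesenchymal cells also called OB-cadherin, had 1.36, 1.44 and 1.44 FPKM in the NC samples and 1.47, 1.69 and 1.35 FPKM in the siPrp19 samples, on 340 to 470 reads. CDH4, or R-cadherin, which occurs in retina and brain, had 0.574, 0.456 and 0.846 FPKM in NC and 1.07, 0.635 and 0.8335 FPKM with siPrp19, on 59 to 179 reads. CDH3, or P-cadherin, had 0.471, 0.756 and 0.178 FPKM in NC and 0.402, 0.455 and 0.304 FPKM with siPrp19, on 22 to 83 reads. The groups overlapped in each of these, and NC replicate 3 had the lowest CDH3 of the 6 samples. For CDH3, 11.1% of the exon bases also belong to an antisense gene, and the library kit is not described as stranded, so reads of the pair cannot be told apart there.

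**Figure D1:**
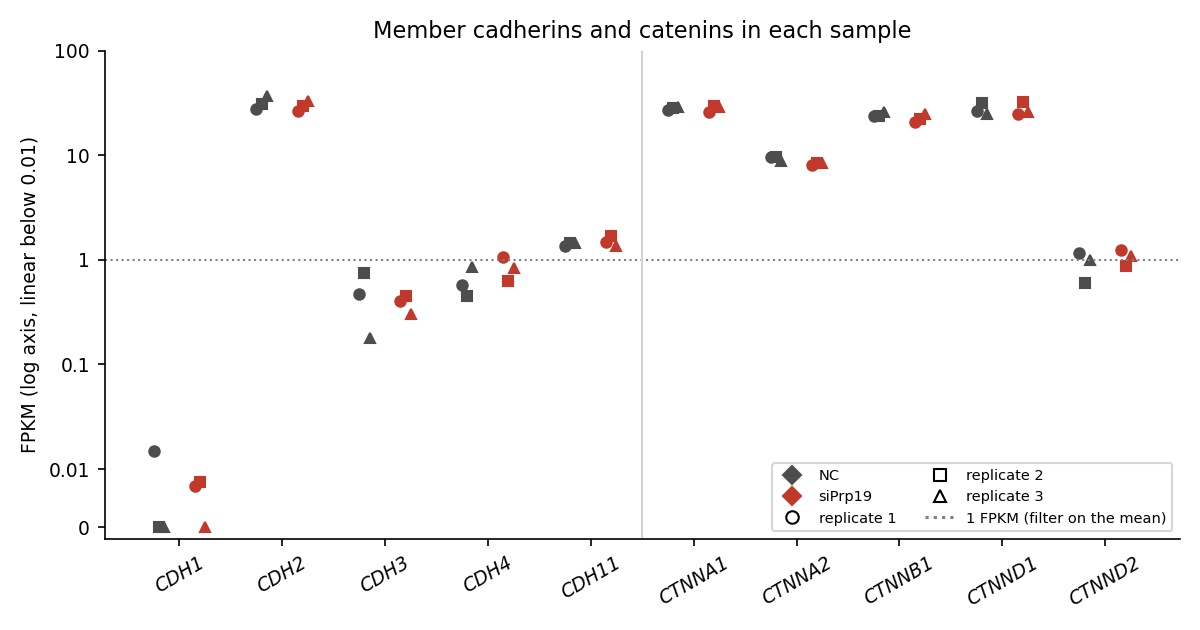
FPKM (log axis, linear below 0.01) of the 10 member genes in each of the 6 samples, NC in grey and siPrp19 in red, with 1 symbol per replicate number and a dotted line at 1 FPKM. CDH2 and the catenins CTNNA1, CTNNB1 and CTNND1 lie between 21.0 and 36.8 FPKM in every sample, and CDH1 lies at or below 0.0148 FPKM.

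α-catenin, which links the complex to actin, was present in both its broad and its neural form. CTNNA1 (ENSG00000044115, chr5:138610967-138935034), the broadly expressed α-E-catenin, had 27.0, 28.5 and 28.9 FPKM in NC replicates 1, 2 and 3 against 25.9, 29.8 and 29.3 FPKM with siPrp19. The groups overlapped and 2 of 3 pairs had the higher value with siPrp19. CTNNA2 (ENSG00000066032, chr2:79185231-80648861), the α-N-catenin of neurons, had 9.70, 9.66 and 8.73 FPKM in NC and 8.08, 8.47 and 8.37 FPKM with siPrp19. All 3 siPrp19 values lay below all 3 NC values, which held for no other member.

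β-catenin and p120 catenin stood at levels near that of CDH2. CTNNB1 (ENSG00000168036, chr3:41194741-41260096) had 23.6, 23.6 and 25.8 FPKM in NC and 21.0, 22.4 and 24.9 FPKM with siPrp19, lower in 3 of 3 pairs but with overlapping groups. Its values did not come out as whole reads with the exon length of GENCODE 29, so no read counts are given for it. CTNND1 (ENSG00000198561, chr11:57753243-57819546), which encodes p120 catenin, had 26.75, 31.8 and 24.9 FPKM in NC and 24.9, 32.4 and 26.1 FPKM with siPrp19. Replicate 2 was its highest sample in both groups. For CTNND1, 4.64% of the exon bases are shared with other genes, part of them with the readthrough gene TMX2-CTNND1, which was listed at 0. CTNND2, the neural δ-catenin, had 1.16, 0.604 and 0.9945 FPKM in NC and 1.23, 0.869 and 1.10 FPKM with siPrp19, on 73 to 192 reads, and was higher in 3 of 3 pairs with overlapping groups.

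Ordered by the mean over the 6 samples, the levels ran from CDH2 (30.9 FPKM) through CTNNA1 (28.2), CTNND1 (27.8), CTNNB1 (23.55), CTNNA2 (8.83), CDH11 (1.46), CTNND2 (0.992), CDH4 (0.736) and CDH3 (0.428) to CDH1 (0.00496 FPKM). The ranges of neighbours in this order overlapped from CDH2 down to CTNNB1 and again from CTNND2 down to CDH3. They did not overlap between CTNNB1 and CTNNA2, between CTNNA2 and CDH11, between CDH11 and CTNND2, or between CDH3 and CDH1.

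Whether knockdown of Prp19 altered these transcripts was tested by a limma fit to log2(FPKM + 0.1) values. It covered 14462 genes whose mean reached 1 FPKM, and p-values were adjusted over all of them by the Benjamini-Hochberg method. Of the members, 6 reached that mean, while CDH1, CDH3, CDH4 and CTNND2 did not. None of the 6 passed an FDR of 0.05, and the same fit called 0 of the 14462 genes, or 0%. By its own test on counts, which was not run here, the paper does report significantly regulated genes. An unadjusted p under 0.05 was reached by 0 of the 6 members and by 1.56% of all tested genes. The fit did not call PRPF19 either (log2 difference −1.04, SE 0.188, unadjusted p = 0.00102, adjusted p = 0.9999 by limma), so a missing call here does not show that a level stayed the same.

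Among the 6 tested members the difference was largest in size for CTNNA2, with a log2 difference of −0.17 (SE 0.110, limma adjusted p = 0.9999) between 9.36 ± 0.549 FPKM in NC and 8.305 ± 0.203 FPKM with siPrp19 (SD, n = 3 each). Its exact two-sided permutation p was 0.1, the smallest that 3 samples against 3 can give. For CTNNB1 the difference was −0.10 (SE 0.118), from 24.34 ± 1.30 to 22.8 ± 1.97 FPKM (SD, n = 3 each), and for CDH2 it was −0.09 (SE 0.154), from 31.9 ± 4.53 to 29.8 ± 3.55 FPKM. For CTNNA1 (0.0063), CTNND1 (−0.0026) and CDH11 (0.08) the log2 difference was smaller still. The median log2 difference of the 6 members was −0.05, against −0.0040 over all tested genes.

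The intervals show which sizes of change the data leave room for. On the scale of FPKM + 0.1, the 95% intervals of limma put the siPrp19 level at 83.25% to 121% of NC for CTNNA1, at 77.0% to 129% for CTNND1, at 76.8% to 114% for CTNNB1 and at 72.6% to 121% for CDH2. For CTNNA2 the interval was 74.05% to 107% and for CDH11 74.5% to 149% of NC. For the members under the filter, tested in the fit over all genes above 0, the intervals were wider, at 69.1% to 198% for CTNND2, 73.35% to 235% for CDH4 and 40.8% to 216% for CDH3.

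Same-numbered samples deviated together, and comparing within pairs narrowed most intervals without changing a call. In the limma fit with the replicate number as a block, CTNNA2 had an interval of 79.4% to 99.5% of NC with an adjusted p of 0.308, or 0.0438 before adjustment. In the same blocked limma fit the interval was 86.6% to 102% for CDH2 (adjusted p = 0.389) and 85.6% to 102% for CTNNB1 (adjusted p = 0.3996). This fit called 0% of all genes at an FDR of 0.05, and 15.7% of them had an unadjusted p under 0.05, against 1 of the 6 members. CDH2, CTNNA2 and CTNNB1 were lower with siPrp19 in all 3 pairs, or 3 of 6, against 21.3% of all tested genes. No tested member was higher in all 3 pairs, against 19.2%. Groups that did not overlap, with siPrp19 lower, were seen in CTNNA2 alone among the members and in 2.84% of all tested genes. With 6 genes these shares carry little precision.

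**Figure D2:**
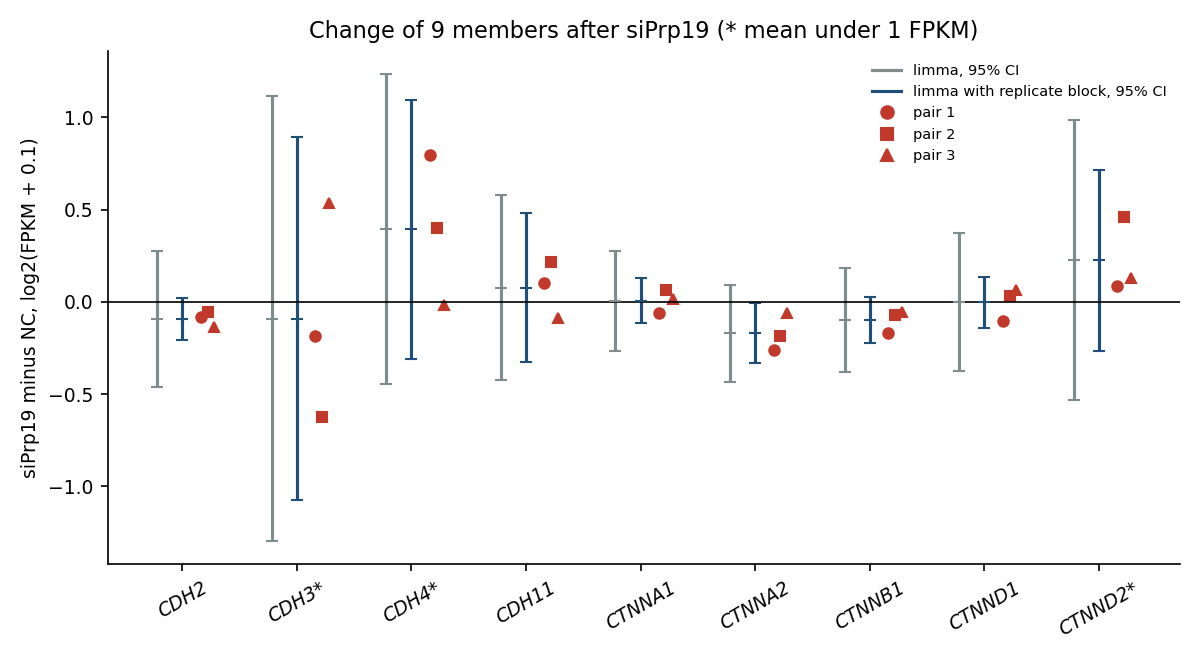
Difference siPrp19 minus NC on the log2(FPKM + 0.1) scale for 9 members (CDH1 is left out), with the limma estimate and its 95% interval without (grey) and with (blue) the replicate block and the 3 same-numbered pairs as red symbols. CTNNA2 lies below 0 in all 3 pairs, with an estimate of −0.17, and asterisks mark the 3 genes with a mean under 1 FPKM, whose intervals are the widest.

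The recovered reads gave a second view of 5 members, all tested ones but CTNNB1. With limma voom on these reads and the replicate block, 7.09% of 13602 genes passed an FDR of 0.05, and 0 of the 5 members did. CTNNA2 came nearest, with a log2 difference of −0.17 (SE 0.0642, limma adjusted p = 0.107). With both replicate 3 samples left out, chosen after these samples were seen to stand apart, CTNNA2 passed in this fit (log2 difference −0.23, adjusted p = 0.0321 by limma voom), while the fit on FPKM gave −0.22 and no call. Without replicate 3 the voom fit called 1230 of 13602 genes. So few samples say little about the variance of a single gene, so its calls lean on variance pooled over genes.

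Sums over the family did not separate the groups. The 5 member cadherins together had 30.3, 33.6 and 39.3 FPKM in NC and 29.3, 32.6 and 35.9 FPKM with siPrp19. Their sum was lower in 3 of 3 pairs by a mean of −0.07 on the log2 scale (exact two-sided permutation p = 0.6). The 5 member catenins together had 88.2, 94.1 and 89.4 FPKM in NC and 81.1, 94.0 and 89.7 FPKM with siPrp19, a log2 difference of −0.04 (exact two-sided permutation p = 0.8). By FPKM, the catenins thus exceeded the member cadherins by 2.28 to 2.91 times in the 6 samples, a ratio that depends on the exon lengths. For the balance of E-cadherin to N-cadherin, log2((CDH1 + 0.1)/(CDH2 + 0.1)) was −7.93, −8.28 and −8.53 in NC and −7.95, −8.115 and −8.39 with siPrp19 (exact two-sided permutation p = 0.8). With CDH1 this low, the ratio follows CDH2 and the pseudocount.

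By FPKM, CDH2 was not the most abundant classical cadherin once the family was widened from the 5 members to 18 genes, 5 of type I and 13 of type II. CDH24, a type II cadherin, had 53.1, 40.7 and 48.9 FPKM in NC and 46.6, 34.8 and 53.4 FPKM with siPrp19, above CDH2 in every sample. That order rests on the exon lengths, 3748 bases for CDH24 and 4950 for CDH2. In reads, CDH24 was above CDH2 in replicates 1 and 3 of both groups and below it in replicate 2. There it had 2687 reads against 2698 in NC and 2715 against 3065 with siPrp19. CDH2 and CDH24 together made up 83.6% to 92.8% of the FPKM of the 18 genes, with 30.4% to 39.85% for CDH2 and 45.1% to 58.0% for CDH24. Within the 5 member cadherins, by contrast, CDH2 made up 89.9% to 93.7%. The longest run of bases shared between CDH24 and a member was 26, with CDH11.

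Next in the family were CDH22 and CDH18, both type II cadherins of the nervous system. CDH22 had 4.30, 6.30 and 0.544 FPKM in NC and 4.625, 6.38 and 0.695 FPKM with siPrp19. It was low in replicate 3 of both groups. CDH18 had 2.53, 1.86 and 2.81 FPKM in NC and 2.71, 2.12 and 3.40 FPKM with siPrp19. Both were higher with siPrp19 in 3 of 3 pairs, and none of the 5 tested genes among the 18 passed an FDR of 0.05 in limma with or without the block or in limma voom with the block. With both replicate 3 samples left out, CDH24 passed in limma voom with the block (log2 difference −0.21, adjusted p = 0.0185). That fit called 1230 of 13602 genes and, as said for CTNNA2, leans on variance pooled over genes.

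**Figure D3:**
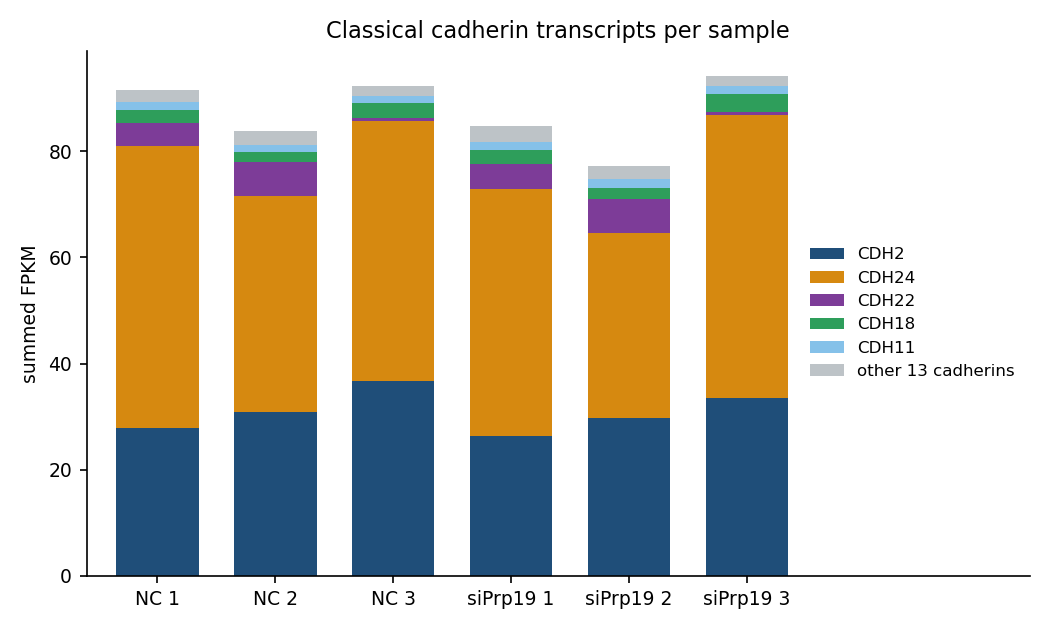
Summed FPKM of 18 classical cadherins in each of the 6 samples, stacked by gene and starting at 0. CDH2 and CDH24 fill 83.6% to 92.8% of each bar, and CDH22 is nearly missing from replicate 3 of both groups.

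Among the relatives of the member catenins, plakoglobin differed most. JUP (ENSG00000173801, chr17:41754604-41786931, minus strand) encodes plakoglobin or γ-catenin, the close relative of β-catenin that can take its place on the cadherin tail and also serves in desmosomes. It had 24.7, 25.75 and 20.4 FPKM in NC and 30.8, 32.8 and 27.98 FPKM with siPrp19, and every siPrp19 value lay above every NC value, as in 2.77% of all tested genes. Its log2 difference was 0.37 (SE 0.138, limma adjusted p = 0.9999), with an adjusted p of 0.19 in the blocked limma fit, of 0.0361 in that fit when limited to genes averaging 5 FPKM or more, and of 7e-05 in limma voom with the block. Without replicate 3 the difference was 0.33 in both kinds of fit. The ratio of JUP to CTNNB1 was 1.05, 1.09 and 0.788 in NC and 1.47, 1.46 and 1.125 with siPrp19. Its log2 difference was 0.47, with an exact two-sided permutation p of 0.1, the smallest possible. Since JUP alone already separated the groups, the ratio is not a separate test.

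Of the list of 10 catenins and armadillo relatives, 8 were tested. Of these, 0 passed an FDR of 0.05 in limma with or without the block over all tested genes, and the median log2 difference was −0.0097. In limma voom with the block JUP alone of 7 passed, against 7.09% of all genes in that fit. CTNNAL1, an α-catenin-like protein, was the most abundant of the list, with 40.2, 50.75 and 24.98 FPKM in NC and 36.9, 52.0 and 22.4 FPKM with siPrp19.

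Genes that tie the complex to actin included 1 call by read counts, in the voom fit with the block that called 7.09% of all its genes. Of 14 junction linkers and nectins, 12 were tested, 0 passed in limma with or without the block, and the median log2 difference was −0.08. VCL, or vinculin, which binds α-catenin under tension, had 21.7, 25.6 and 19.8 FPKM in NC and 14.7, 20.8 and 18.1 FPKM with siPrp19. It was lower in 3 of 3 pairs with overlapping groups, at a log2 difference of −0.33 (limma adjusted p = 0.9999, 0.230 with the block), and passed in limma voom with the block (adjusted p = 0.000912). For VCL, 11.1% of the exon bases also belong to AP3M1 on the other strand. ZYX (zyxin), ACTN1 and ACTN4 (α-actinins) and NECTIN1, the most abundant of the list, lay between 18.4 and 52.4 FPKM in all samples and did not pass in limma with or without the block or in voom with the block. VCL was named after its values were seen.

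The regulators of cadherin and β-catenin turnover gave no call. Of 6 genes for cadherin cleavage, endocytosis and recycling and for the p120-binding transcription factor ZBTB33 (Kaiso) all 6 were tested, and 0 passed in limma with or without the block or, for the 5 with recovered reads, in voom with the block, with a median log2 difference of −0.03. RAB11A, the most abundant of them, which returns cadherin to the membrane, was higher in 3 of 3 pairs at 19.4, 20.6 and 23.9 FPKM in NC and 21.6, 22.5 and 25.8 FPKM with siPrp19. Of the 6 genes, 1 was higher in all 3 pairs, against 19.2% of all tested genes, and 2 were lower, against 21.3%. Of 7 genes of the β-catenin destruction complex, 6 were tested, 5 of them also by voom, and 0 passed, with a median of −0.03. Of its members, CSNK1A1 (casein kinase 1α) was highest at 20.5 to 29.6 FPKM.

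The partners and Wnt target genes of β-catenin gave 0 calls among 7 tested of 12, in limma with or without the block and in voom with the block, with a median log2 difference of 0.04. BCL9, a co-activator that binds β-catenin directly, had 10.1, 10.7 and 10.75 FPKM in NC and 11.02, 12.6 and 12.1 FPKM with siPrp19, without overlap (log2 difference 0.18, adjusted p = 0.9999 in limma and 0.244 with the block). Of the 12, LGR5 had the highest mean, at 14.8 to 22.3 FPKM.

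Of 9 transcription factors that repress CDH1, 7 reached an average of 1 FPKM and were tested, while TWIST2 and KLF8 did not reach it. TWIST1 had 126 to 162 FPKM over the 6 samples, TCF3 35.1 to 44.9, SNAI2 12.6 to 27.7 and SNAI1 16.5 to 19.9 FPKM. None of the 7 passed in limma with or without the block, and 1 of 5 passed in limma voom with the block, which called 7.09% of all its genes. That gene was TCF4 (E2-2), with 11.4, 12.2 and 11.8 FPKM in NC and 9.57, 10.3 and 8.53 FPKM with siPrp19, without overlap, at a log2 difference of −0.32 (limma adjusted p = 0.9999, 0.207 with the block, 0.000312 in voom with the block). It was named after its values were seen. SNAI2 (Slug) had 15.4, 22.8 and 27.7 FPKM in NC and 12.6, 16.65 and 23.8 FPKM with siPrp19, lower in 3 of 3 pairs, at a log2 difference of −0.32 (limma adjusted p = 0.202 with the block). TCF3 went the other way, higher in 3 of 3 pairs with overlapping groups. Its log2 difference was 0.17 (limma adjusted p = 0.2998 with the block, 0.0547 in voom with the block). The median log2 difference of the list was 0.0015.

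**Figure D4:**
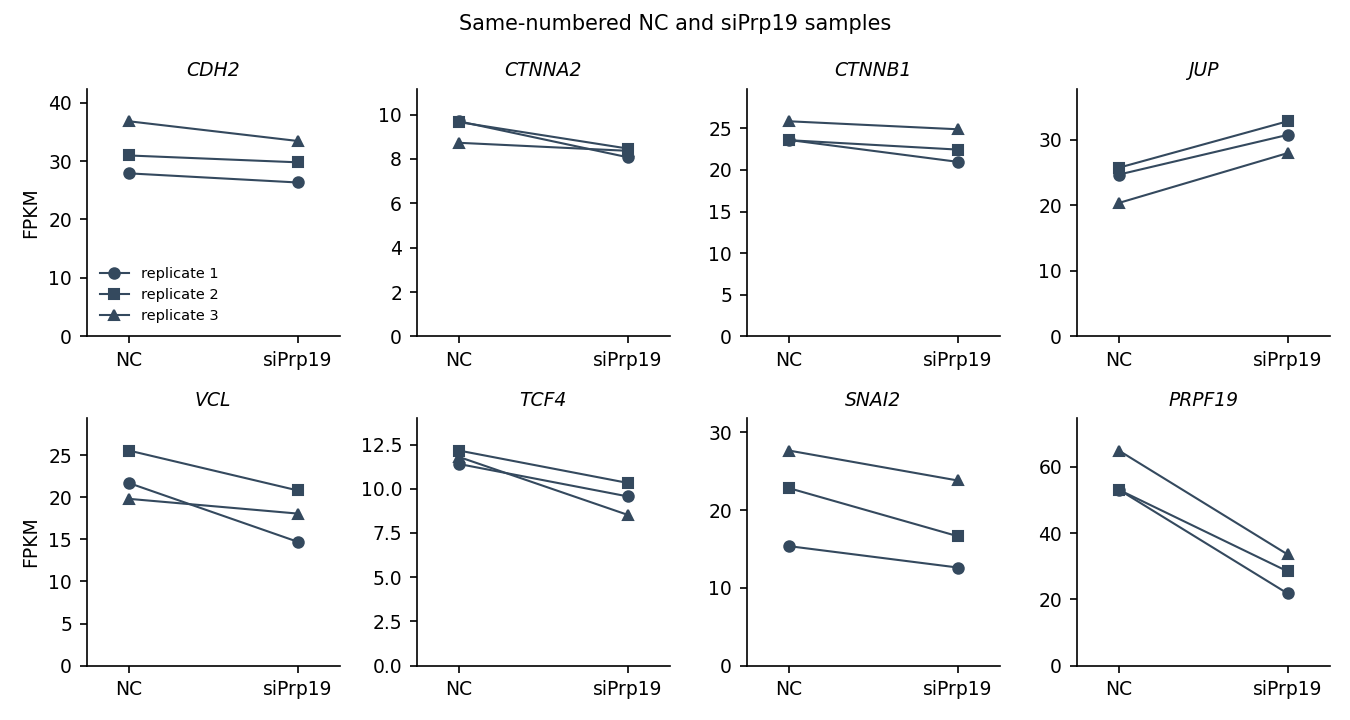
FPKM of 8 genes in NC and siPrp19 samples, with a line joining samples of the same replicate number and every axis starting at 0. JUP is higher with siPrp19 in 3 of 3 pairs, and CDH2, CTNNA2, CTNNB1, VCL, TCF4, SNAI2 and the targeted PRPF19 are lower in 3 of 3.

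Markers of other cell states were measured beside these values. The summed level of the 13 epithelial markers was 3.86 to 5.01 FPKM in NC and 4.84 to 6.20 FPKM with siPrp19, and EPCAM, the only one tested, had 1.75, 1.78 and 1.345 FPKM in NC and 2.48, 1.795 and 2.00 FPKM with siPrp19 (log2 difference 0.34, limma adjusted p = 0.9999). EPCAM was higher in 3 of 3 pairs, as were 19.2% of all tested genes. Its groups did not overlap, with siPrp19 higher, as in 2.77% of them. The summed level of the 9 adrenergic markers was 2040 to 2147 FPKM in NC and 1905 to 2452 FPKM with siPrp19. That of the 8 mesenchymal or Schwannian markers was 258 to 348 FPKM in NC and 258 to 333 FPKM with siPrp19. Of its 6 tested genes, 4 were lower in 3 of 3 pairs, against 21.3% of all tested genes. Limma voom with the block called 0 of 1 epithelial marker, and FN1 and TAGLN as 2 of 6 mesenchymal or Schwannian markers, both lower with siPrp19. That fit called 7.09% of 13602 genes, and with 6 markers such shares carry little precision. The part of these markers in the values of the cadherins and catenins was not tested, and in bulk RNA a smaller share of cells and less RNA per cell cannot be told apart.

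The genes whose levels followed CDH2 most closely over the 6 samples were DNAJC8 (Pearson r = 0.997), THAP9-AS1 (r = 0.996) and ZFP64 (r = 0.994) of log2(FPKM + 0.1). For CTNNA1, the member catenin with the highest mean, they were TSPYL5 (r = 0.994), PDCD10 (r = 0.992) and NCOA4 (r = 0.989). These values describe the 6 libraries, which share replicate numbers across the groups.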

How the data were processed

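Libraries from SK-N-BE(2) cells (3 NC, 3 siPrp19) were sequenced by the authors. The submitters' processing notes name HISAT2 2.0.5, featureCounts 1.5.0-p3 and hg38; their order and settings are not given in the sources used here. The authors deposited 1 FPKM table per sample, scaled alike (median-of-ratios factor 1.00736 in every sample). Gene identifiers were matched to GENCODE 29. Reads were recovered as FPKM times exon length in steps of 1 read, taken as whole within 0.01, for 56434 of 58039 matched genes; genes listed at 0 cannot fail this.

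limma 3.58.1 in R 4.3.3 (lmFit, eBayes with trend) was run on log2(FPKM + 0.1), which understates changes of low genes, for a mean of at least 1 FPKM; the study's own count test was not used, since the files hold FPKM. Single values were compared by exact two-sided permutation in scipy 1.17.1 (smallest p 0.1 for 3 against 3). Alternatives were a pseudocount of 1, no filter, a mean of at least 5 FPKM, TPM, quantile normalization, eBayes without trend and robust, the replicate block, limma voom on recovered reads, and each sample left out; leaving out both replicate 3 samples, and voom over all genes above 0, were added after the data were seen. Samples were paired by replicate number, a choice that rests on the values. Deviations from group means of same-numbered samples correlated across genes (r = 0.381, 0.568 and 0.639), against at most 0.0455 for samples of unlike number. Deviations cancel out within a group, so the low values for unlike numbers follow in part from the high ones and are not separate evidence.

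The 10 members are all named with every sample's value; of each other list at most 4 genes, by highest mean FPKM or an FDR under 0.05, are named, besides VCL and TCF4, and the single markers, which were named after their values were seen. Members and lists were chosen with earlier results of these data known. The calls among the adrenergic markers are not reported here.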

Additional observations from a re-analysis of the deposited data

How the results depend on the processing

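With 3 samples a group and replicates that spread as widely as most of the differences, several of the small differences have no settled direction. No alternative called a member except limma voom with the replicate block without both replicate 3 samples, which called 1 (CTNNA2) and 1230 genes in all. Over all genes the count of 0 became 1 without trend and robust, 124 with the replicate block at a mean of at least 5 FPKM and 965 in limma voom with the replicate block. Voom over all genes above 0, used for members under the filter, called 938 with the replicate block. The other limma fits on FPKM, and voom without the block at a mean of at least 1 FPKM, called 0 genes, and 225 genes reached an unadjusted p under 0.05 in the reported limma fit. At an FDR of 0.05 the replicate block changed no call of a member in fits to all 6 samples. Among other named genes it added PRPF19, JUP and FN1 at a mean of at least 5 FPKM, and PRPF19, JUP, VCL, TCF4, FN1 and TAGLN in voom. With 1 sample or both replicate 3 samples left out, limma on FPKM called 0 genes and 0 members.

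The log2 difference of CTNND1 (−0.0026) turned to 0.0018 as TPM and to 0.0103 with quantile normalization. With replicates left out it ranged from −0.12 to 0.10, that of CDH2 from −0.18 to 0.016 (without NC replicate 3), CDH3 from −0.53 to 0.28, CDH11 from −0.0063 to 0.16, CTNNA1 from −0.032 to 0.070 and CTNND2 from −0.020 to 0.40. CDH4 (0.22 to 0.60), CTNNA2 (−0.22 to −0.14) and CTNNB1 (−0.16 to −0.04) kept their sign. The difference siPrp19 minus NC of the log2 ratio of CDH1 to CDH2 ranged from −0.046 to 0.25, that of the summed cadherins from −0.16 to 0.025 and that of the summed catenins from −0.087 to 0.020. Causes were not tested. CDH1 was given no fold change under any setting, since both groups lay under the limit of 3 reads.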
